A study of Homo sapiens with 6 samples.

Results

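Chimera-only regions are stretches of chromatin with an ATAC-seq peak in all 3 libraries of chimera-expressing H1155 cells and in none of the 3 control libraries. They were chosen by merging the deposited peaks of the 6 libraries on chromosomes 1 to 22 and X wherever peaks shared at least 1 bp, and then reading which libraries had a peak in each merged region. The rule kept 930 of 149765 merged regions, or 0.621% of them. Because presence of a peak selected them, that pattern and the strength of those peaks are given as a description, without a test.

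H1155 is an established line of human lung carcinoma cells. The study compared cells of the genotype called chimera, titled TA, with control cells of the same line, each as biological triplicates. The labels do not say what the chimera or TA is, how it was expressed or how the control cells were treated. The title of the series speaks of lineage features and epithelial behavior.

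ATAC-seq uses a transposase that cuts DNA where nucleosomes leave it exposed, so peaks mark open chromatin such as active promoters and enhancers. Promoters lie at gene starts and are often open in many cell types, whereas enhancers lie within or between genes, may act over long distances and differ more between cell states. In a bulk library, opening in a larger part of the cells and wider opening in each cell cannot be told apart. The gene nearest to an enhancer is not always the gene it acts on.

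The positions in the peak lists followed hg19, although the submitters' processing notes name GRCh38. Peaks ran past the GRCh38 end on 14 of 23 chromosomes and past the hg19 end on 0. A region open in all 6 libraries lay within 500 bp of the hg19 position for 26 of 30 well-known promoters, and within 500 bp of the GRCh38 position for 5. Genes of the GRCh38.p14 RefSeq table were therefore placed on the files' positions by lining up their starts with regions open in all libraries. This placed 18198 of 19974 protein-coding genes. At 29 well-known promoters the nearer placed gene end differed from the hg19 position by a median of 106 bp. The difference was at most 300 bp at 26 and over 1 kb at 2, with a largest value of 45.1 kb. All positions below are the files' own, counted from 1, on hg19.

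The lists held 94484, 98984 and 99654 peaks in chimera replicates 1, 2 and 3, and 101267, 85730 and 109321 peaks in control replicates 1, 2 and 3. Total reads were not used here, so the depth behind a single region is unknown. Starts of 6 of 6 neuroendocrine marker genes and 3 of 3 mesenchymal marker genes lay within 1 kb of a region open in all libraries, with either end of a gene taken where its strand was not known. The same held for 3 of 4 placed epithelial marker genes, with CDH1 the exception, and for 0 of 4 blood marker genes. Genes were placed with the help of these same regions, so the marker counts are not independent of the placement.

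As placed, a chimera-only region lay over the start of 6 protein-coding genes. Placement differed by a median of 106 bp at well-known promoters, so which starts are covered is not settled below that scale. Their promoters are printed because nearly all other members lie at a distance from any start. Each run covers the 250 bases before to 50 after the start in RefSeq on GRCh38.p14. Capitals mark matches, on either strand, to the TEAD motif GGAATG, the AP-1 motif TGANTCA and the E-box CANNTG, so a site of the opposite strand appears as its reverse complement.
TRIM47: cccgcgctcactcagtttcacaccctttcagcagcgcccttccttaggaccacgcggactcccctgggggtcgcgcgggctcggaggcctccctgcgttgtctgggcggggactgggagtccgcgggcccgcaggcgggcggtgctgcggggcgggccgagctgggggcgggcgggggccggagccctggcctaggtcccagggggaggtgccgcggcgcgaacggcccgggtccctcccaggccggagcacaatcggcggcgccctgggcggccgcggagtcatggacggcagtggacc
HYLS1: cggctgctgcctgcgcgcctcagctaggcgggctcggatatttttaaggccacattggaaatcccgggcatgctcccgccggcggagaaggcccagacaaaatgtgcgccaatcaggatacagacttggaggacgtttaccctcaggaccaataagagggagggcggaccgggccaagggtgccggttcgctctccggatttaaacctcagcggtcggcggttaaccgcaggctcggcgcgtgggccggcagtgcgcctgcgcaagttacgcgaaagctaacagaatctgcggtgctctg
RORA: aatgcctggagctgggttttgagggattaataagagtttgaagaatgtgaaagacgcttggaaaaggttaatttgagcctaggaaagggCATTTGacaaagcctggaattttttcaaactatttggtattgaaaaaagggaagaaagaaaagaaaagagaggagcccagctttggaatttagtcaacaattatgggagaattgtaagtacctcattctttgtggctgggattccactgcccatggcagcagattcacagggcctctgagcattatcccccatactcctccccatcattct
UPK3B: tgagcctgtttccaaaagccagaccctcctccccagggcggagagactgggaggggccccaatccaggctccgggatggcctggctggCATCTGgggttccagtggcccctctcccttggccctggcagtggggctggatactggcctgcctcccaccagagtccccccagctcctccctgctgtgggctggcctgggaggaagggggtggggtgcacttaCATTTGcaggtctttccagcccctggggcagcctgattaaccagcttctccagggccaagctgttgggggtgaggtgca
TYRO3: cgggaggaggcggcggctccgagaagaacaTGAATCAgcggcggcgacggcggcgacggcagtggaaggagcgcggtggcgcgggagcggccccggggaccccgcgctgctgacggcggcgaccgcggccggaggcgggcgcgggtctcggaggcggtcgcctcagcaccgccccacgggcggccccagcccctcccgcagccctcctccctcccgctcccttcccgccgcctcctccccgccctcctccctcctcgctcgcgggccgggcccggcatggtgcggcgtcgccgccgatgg
CMKLR2: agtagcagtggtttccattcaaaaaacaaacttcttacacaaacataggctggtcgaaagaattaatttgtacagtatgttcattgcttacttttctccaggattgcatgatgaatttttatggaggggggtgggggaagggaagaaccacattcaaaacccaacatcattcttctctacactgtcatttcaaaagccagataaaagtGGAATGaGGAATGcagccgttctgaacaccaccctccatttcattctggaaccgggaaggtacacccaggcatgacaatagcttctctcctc

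The CMKLR2 promoter held 2 TEAD matches, the TYRO3 promoter 1 AP-1 match, the RORA promoter 1 E-box and the UPK3B promoter 2 E-boxes. TRIM47 and HYLS1 held none of the 3. Among 20468 promoters of the same length, 12.1% held a TEAD match, 5.92% an AP-1 match and 64.7% an E-box. G and C made up 77.0% of the TRIM47 run and 80.3% of the TYRO3 run, but 42.0% of the RORA run and 42.3% of the CMKLR2 run. The median over all those promoters was 63.0%. The 6 thus included both GC-rich promoters and promoters far below the median in GC content, and a match is a run of letters, not a bound site.

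Chimera-only regions had a median width of 384.5 bp, with quartiles of 313 and 496.5 bp and a range of 200 to 1097 bp. The median was 354 bp for control-only regions, which had a peak in all 3 control libraries and in no chimera library, 332 bp for regions that any 3 libraries of mixed groups shared, and 739 bp for the 56679 regions open in all libraries. Over all merged regions it was 371 bp. In 888 of 930 regions each chimera library had a single peak. The 3 summits lay within 100 bp of each other in 642 regions, or 69.0%, with a median spread of 63.5 bp.

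Most of them were weak in their own lists. The fold is the authors' peak enrichment over local background in that library, and it ranks peaks only within a list. In chimera replicate 1 the members' median fold was 4.14, and the median over all its peaks was 5.12. The same pair was 4.28 and 5.41 in chimera replicate 2, and 3.98 and 4.98 in chimera replicate 3. By −log10 q the median member sat at 75.1% from the top of the list of chimera replicate 1, at 75.4% in chimera replicate 2 and at 73.8% in chimera replicate 3. No member reached the top 10% of any list, and 83, 92 and 78 members lay above the median of the list in chimera replicates 1, 2 and 3.

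For ranking, each region was given its lowest −log10 q among the chimera libraries, taking the strongest peak in each. This value had a median of 4.96 and ranged from 1.86 to 20.1. It was at least 5 in 458 regions and at least 10 in 34. Weaker regions had less exact summits: the median spread was 44.0 bp in the 310 highest-ranked regions, 63.0 bp in the next 310 and 102.5 bp in the last 310.

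At the edge of the rule stood regions with a peak in all 3 chimera libraries and in a single control library, of which there were 2174. Control replicate 3 supplied that peak in 1359 of them, control replicate 1 in 612 and control replicate 2 in 203. The median of their lowest chimera −log10 q was 5.86, 5.68 and 5.40 in the same order, against 4.96 for members. On the other side, 3240 regions had a peak in exactly 2 chimera libraries and in no control library. Their median, taken over those 2 libraries, was 4.61, 4.46 and 4.49 where chimera replicate 1, 2 or 3 lacked the peak. The last members inside the rule were chr2:30439527-30439864, near LBH, with folds of 2.59, 3.48 and 3.23 in chimera replicates 1, 2 and 3, and chr3:7828401-7828897, between genes near GRM7, with folds of 3.47, 4.78 and 2.66. Both were chosen for their place in the ranking after values were seen. A control library without a peak can still hold signal below its calling threshold.

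Leaving out a library removes a condition from the rule, so a higher count is built in and says little about that library. Without chimera replicate 1, 2 or 3 the rule would keep 2190, 1922 and 1971 regions. Without control replicate 1 it would keep 1540 and without control replicate 3, the library with the most peaks, 2310. The mirror pattern, control-only, was found in 1197 regions.

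Few chimera-only regions lay at a gene start. Of 813 with a nearby gene order that could be placed and a known strand, 21 lay within 1 kb of a start, or 2.58% (95% Clopper-Pearson interval 1.61 to 3.92%, counting error only). It was 1.19%, below that interval, after merging across gaps of up to 1 kb. The share was 8.81% for control-only regions, 5.49% for the regions that any 3 libraries of mixed groups shared and 21.7% for regions open in all libraries. A further 10.1% of the chimera-only regions lay 1 to 10 kb away, 50.2% lay 10 to 100 kb away and 37.1% lay farther. Their median distance was 67.9 kb, against 48.3 kb for control-only regions, 53.2 kb for those shared by 3 libraries of mixed groups and 29.0 kb for regions open in all libraries. Genes were placed by lining up their starts with regions open in all libraries, so the share of that class may owe in part to the placement. These shares are set side by side without a test. Starts of genes whose strand was not used are missing from them. Counting both ends of such genes as starts put 3.24% of chimera-only, 10.7% of control-only and 25.03% of regions open in all libraries within 1 kb.

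**Figure D1:**
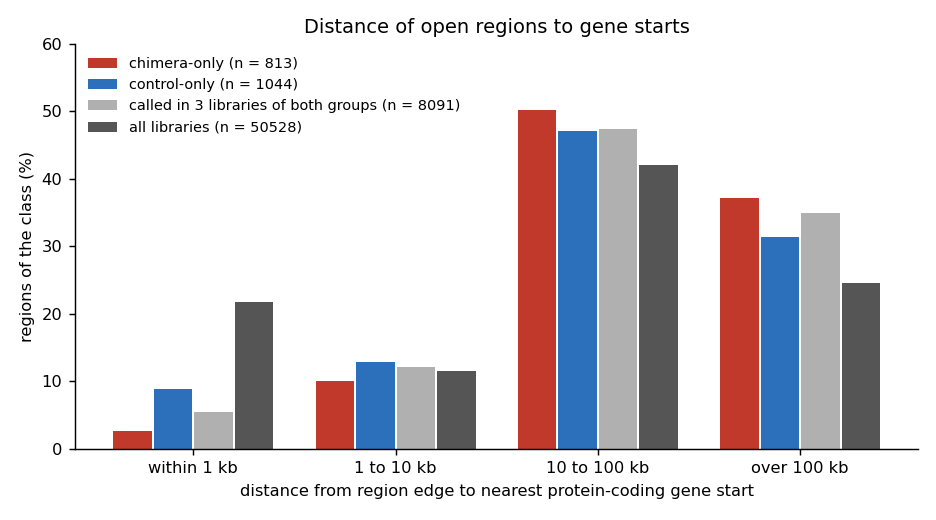
Percentage of regions in each class by distance from the region's edge to the nearest protein-coding gene start, for chimera-only regions, control-only regions, regions called in 3 libraries of mixed groups, and regions open in all libraries (n in the legend). Chimera-only regions have the lowest bar within 1 kb, 2.58%, and the highest over 100 kb, 37.1%.

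Of 864 chimera-only regions in a fully placed neighbourhood, 409 overlapped a gene span, or 47.3%, and 156, or 18.1%, lay over 100 kb from any placed gene. The share in gene spans was 54.0% for control-only regions, 51.2% for regions shared by 3 libraries of mixed groups and 60.8% for regions open in all libraries. The share over 100 kb from a gene was 14.5% for control-only regions, 16.8% for those of mixed groups and 10.5% for regions open in all libraries. The genes that held chimera-only regions had a median span of 183 kb, against 132 kb for control-only regions, 149.8 kb for those of mixed groups and 90.2 kb for regions open in all libraries. A median of 5 regions open in all libraries lay within 100 kb of a chimera-only region, and 70 of the 930, or 7.53%, had none. The median was also 5 for regions of mixed groups, of which 7.30% had none, and it was 6 over all merged regions, of which 6.21% had none.

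Distances to the nearest control peak were read for chimera-only regions alone, with no share of other classes to set beside them. The nearest control peak lay at a median of 5.36 kb from the edge of a chimera-only region. It lay within 1 kb for 206 regions, or 22.2%, and over 50 kb away for 47, with a largest distance of 297 kb.

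Chimera-only regions were found on all 23 chromosomes. Their share of merged regions ranged from 0.277% on chromosome 19, with 13 regions, to 0.985% on chromosome 21, with 17 regions. Chromosome 1 held the most, 78 regions.

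The neighbourhood of chimera-only regions was described from the other regions of the same libraries. Among regions outside all 3 classes (chimera-only, control-only and open in all libraries), the share centred within 50 kb of a chimera-only region was 5.04, 5.11 and 5.08% in chimera replicates 1, 2 and 3. It was 4.77, 4.61 and 4.72% in control replicates 1, 2 and 3. The groups did not overlap. The mean was 5.08 ± 0.0311% in chimera libraries and 4.70 ± 0.0810% in control libraries (SD, n = 3 each), a difference of 0.376 percentage points. The difference was 0.657 percentage points when all regions were picked again without chimera replicate 1. Around the same regions as before it was 0.0917 when only 10 kb either side was counted.

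Around control-only regions the order was the other way. The share was 6.84, 6.84 and 7.02% in chimera replicates 1, 2 and 3, and 7.34, 7.85 and 7.47% in control replicates 1, 2 and 3. Again the groups did not overlap, with a difference of −0.653 percentage points. With all regions picked again, the difference was −1.005 without chimera replicate 3, −1.12 without control replicate 1 and −1.14 without control replicate 2. Around the same regions as before it was −0.190 within 10 kb. Control replicate 2, the library with the fewest peaks, had both the lowest share around chimera-only regions and the highest around control-only regions. The regions at the centre were picked by peaks of these same libraries under the same labels, so both directions are tied to that choice. The differences are therefore a description, and no p is given. The part of peak number in these shares was not tested.

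**Figure D2:**
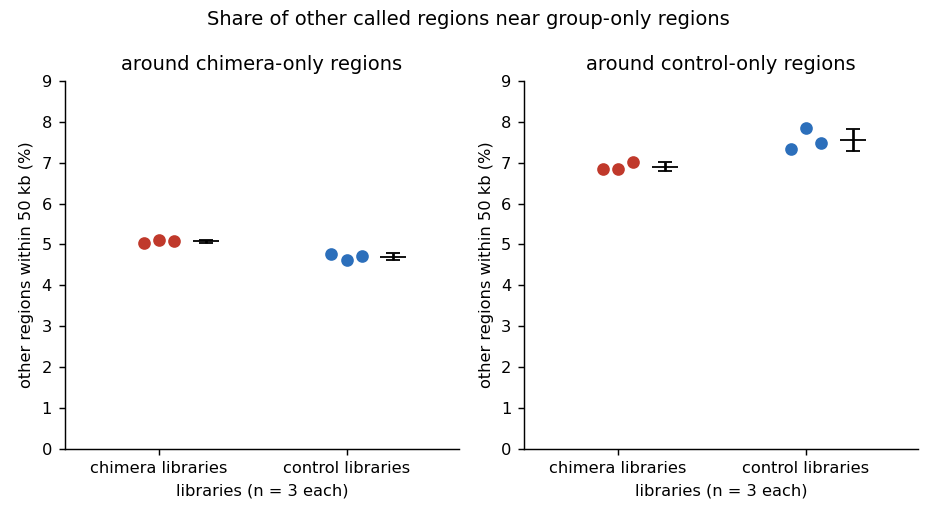
Percentage of each library's other called regions centred within 50 kb of a chimera-only region (left) or a control-only region (right), with a point for each library and a bar for the mean and SD (n = 3 each). The chimera points lie above the control points on the left and below them on the right, and neither pair of groups overlaps.

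The highest-ranked region lay within the span of CERS4, a ceramide synthase, at chr19:8303189-8303724. Its folds were 8.27, 6.72 and 6.36 in chimera replicates 1, 2 and 3. No control library had a peak in it, and the nearest control peak lay 1.45 kb away. Second was a region within TNS1, which encodes tensin 1, a protein that links integrins to the actin skeleton at focal adhesions. This region, chr2:218701074-218701479, lay 13.4 kb from a TNS1 start and had folds of 5.76, 6.71 and 6.08, with a control peak at 0.363 kb.

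The third region, chr2:177478309-177479318, was wider at 1010 bp and lay between genes, 276 kb from MTX2, which encodes a mitochondrial outer membrane protein. Its folds were 6.99, 7.22 and 5.97 in chimera replicates 1, 2 and 3. The fourth, chr15:41184105-41184370, lay 2.35 kb from VPS18, a subunit of the complexes that tether vesicles to lysosomes, with folds of 4.31, 4.30 and 3.55. The same region lay 37.2 kb from the start of DLL4, a Notch ligand. Of these 4 regions, 2 lay inside genes and 2 between them.

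Among the other regions of the top 25, several lay deep inside genes. A region in CASK, a scaffold kinase of cell junctions and synapses, lay 57.4 kb from the start and had folds of 7.13, 6.68 and 6.08 in chimera replicates 1, 2 and 3. A region in JAKMIP2 had folds of 6.67, 8.29 and 5.40, and a region in LRMDA, a gene of melanocyte differentiation, had folds of 6.07, 6.86 and 5.83. ATP2B4, a plasma membrane calcium pump, held a region with folds of 4.53, 4.56 and 4.08. Further members of the top 25 inside genes lay in C12orf42, FRMD3, CTPS1, DAB1, SYT17 and STEAP1B.

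Others lay between genes, some of them far from any. The region chr16:80016229-80016595 lay 382 kb from MAF, a bZIP transcription factor, with folds of 6.42, 6.95 and 5.87 in chimera replicates 1, 2 and 3. A region 197 kb from BCOR, which encodes a transcriptional corepressor, had folds of 5.82, 6.07 and 5.26. A region 82.1 kb from POLR1F, a subunit of RNA polymerase I, had folds of 6.42, 7.49 and 6.65, and the nearest control peak was 50.7 kb away. The remaining members of the top 25 between genes were nearest to LARP4B, TMEM158, PTPRT, ATOH8, RB1CC1, CLMP, RASGEF1B and ARHGAP4.

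**Figure D3:**
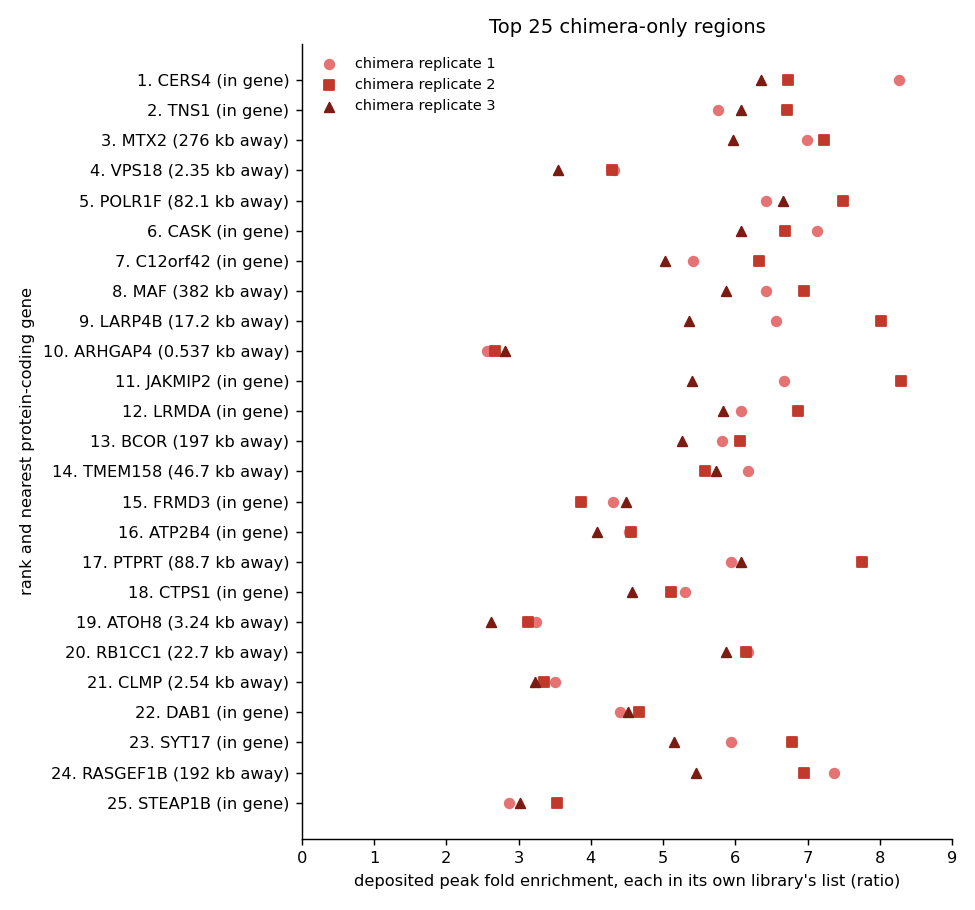
Deposited fold of the strongest peak in each chimera library for the 25 top-ranked chimera-only regions, with the nearest protein-coding gene and its distance; a fold ranks peaks only within its own list. The lowest folds in chimera replicates 1 and 2 belong to the region near ARHGAP4, 2.56 and 2.68. In chimera replicate 3 the lowest is 2.62, near ATOH8, with 2.81 near ARHGAP4. No control library had a peak in any of the 25.

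At gene starts, the region highest in the ranking by lowest −log10 q was the one 0.537 kb from ARHGAP4, which encodes a GTPase-activating protein. Its lowest −log10 q was 12.2, but its folds of 2.56, 2.68 and 2.81 in chimera replicates 1, 2 and 3 were lower than those at many other starts. A control peak lay 0.289 kb from its edge. FBLIM1, whose product migfilin links filamin to cell-matrix adhesions, had a region 0.796 kb from a start with folds of 3.47, 4.51 and 3.19 in chimera replicates 1, 2 and 3. There the nearest control peak was 2.55 kb away.

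The regions over the printed promoters differed in strength. At RORA, a nuclear receptor, chr15:60919390-60919818 had folds of 8.29, 4.55 and 7.02 in chimera replicates 1, 2 and 3, and the nearest control peak lay 23.6 kb away. As placed, it covered a start within the gene, and 63 of the 300 printed bases. With a median placement difference of 106 bp at well-known promoters, this overlap with the start is not resolved. At HYLS1, a gene needed for cilium formation, chr11:125757437-125758155 had folds of 4.27, 4.55 and 4.32, covered all 300 bases and had its nearest control peak 12.7 kb away. The chimera summits in this merged region spread over 523 bp, so a peak of each library need not lie over the start. At UPK3B, a uroplakin of urothelium and mesothelium, chr7:76139596-76140098 had folds of 5.19, 3.27 and 3.85. At these 3 starts the nearest control peak was over 1 kb from the region.

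At the other three, control peaks adjoined the region. At TRIM47, a ubiquitin ligase, chr17:73874491-73875053 had folds of 2.48, 2.58 and 2.76, with a control peak 0.272 kb away. At TYRO3, a receptor tyrosine kinase, chr15:41851210-41851531 had folds of 2.36, 3.64 and 2.84, with a control peak 0.111 kb away. CMKLR2, a receptor for chemerin, was taken up after its values were seen. Its region, chr2:207078015-207078577, had folds of 3.20, 3.21 and 3.57, chimera summits spread over 287 bp and a control peak 0.101 kb away. There the called peaks of chimera and control libraries stood side by side without overlap.

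Starts of 3 developmental genes also lay within 1 kb of a region. WNT5A encodes a secreted ligand of Wnt signalling, and chr3:55520974-55521316 lay 0.140 kb from its start with folds of 3.41, 3.34 and 2.99 in chimera replicates 1, 2 and 3. BCL11B encodes a zinc finger transcription factor known from T cells and neurons, and its region had folds of 2.62, 3.14 and 2.93. DACH2 belongs to the dachshund family of transcription cofactors, and its region had folds of 3.10, 3.47 and 3.58. A control peak lay within 1 kb of all 3, at 0.199, 0.513 and 0.0620 kb.

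DIO3, which encodes the deiodinase that inactivates thyroid hormone, had a region 0.0950 kb from its start with folds of 3.17, 5.29 and 4.21 in chimera replicates 1, 2 and 3. That distance is below the median placement difference of 106 bp. The other regions at starts among the 15 highest were at BCR, CPVL, DPEP1 and ATP8B4.

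Some genes had several chimera-only regions. At least 1 lay within 100 kb of the span of 1654 of 18198 placed genes, or 9.09%, and a control-only region lay that close to 2690, or 14.8%. Both kinds lay near 310 genes. Long genes had them more often: the share was 13.2% in the longest 4550 genes, with a median span of 133 kb, and 7.45% in the shortest 4550, with a median span of 4.42 kb. At least 3 lay near 16 genes.

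NAV2, a neuron navigator protein that acts on the cytoskeleton, had the most with 5, along with 2 control-only regions and 58 regions open in all libraries. The highest-ranked of the 5, chr11:19595030-19595616, lay 229 kb from the 5′ end of the gene and had folds of 5.54, 4.87 and 5.31 in chimera replicates 1, 2 and 3. A region at 99.4 kb, chr11:19465823-19466165, had folds of 3.93, 3.83 and 4.73. A neighbour at 102 kb had folds of 3.19, 4.08 and 3.21. The other two lay 37.5 kb before the gene and 422 kb into it, so the 5 were spread over much of the locus.

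**Figure D4:**
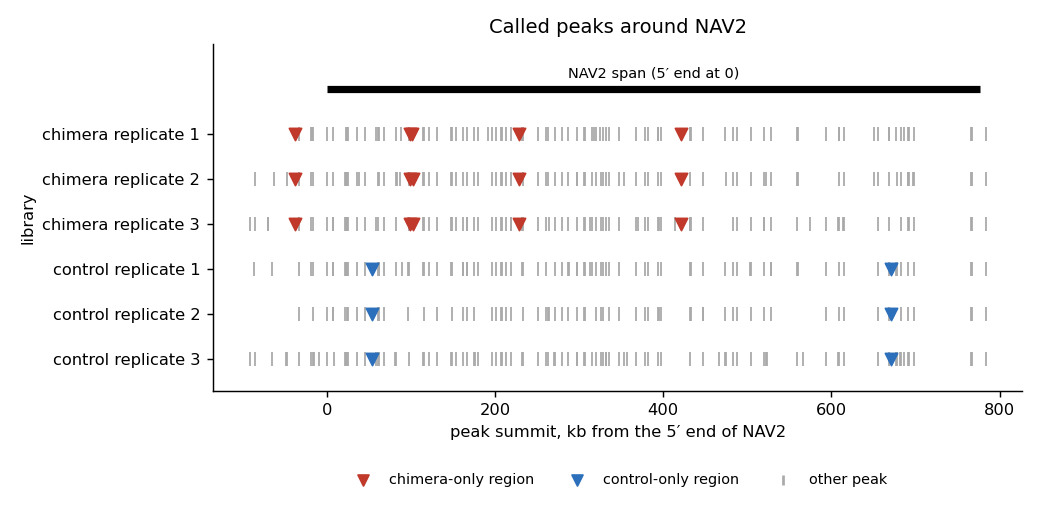
Summits of the called peaks around NAV2 in each library, in kb from the 5′ end of the gene, with the gene span above; triangles mark chimera-only and control-only regions and ticks mark other peaks. The 5 chimera-only regions and 2 control-only regions stand among 58 regions that are open in all libraries.

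GABRG3, a subunit of the GABA-A receptor, held 4 chimera-only regions within its 571 kb span. The highest-ranked had folds of 3.69, 4.74 and 3.19 in chimera replicates 1, 2 and 3, with a control peak 0.13 kb away. KALRN, a guanine nucleotide exchange factor, also had 4 chimera-only regions. Of these, 2 lay within KALRN, and the other two were 49.6 and 71.2 kb beyond its span, inside the neighbouring integrin gene ITGB5. Control-only regions numbered 1 near GABRG3 and 0 near KALRN.

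Genes with 3 regions included DCLK1, a microtubule-associated kinase, and GABBR2, a GABA-B receptor subunit. In DCLK1 the regions at chr13:36450915-36451246 and chr13:36451296-36451642 were neighbours, with folds of 4.75, 7.37 and 5.23 in the first and 3.86, 4.84 and 3.98 in the second. Other genes with 3 were CSMD2, DAB1, DPYSL2, GPC3, GRIP2, LOC124901868, NALF1, PNMA2, SLC17A1 and SLC6A6. DPYSL2, PNMA2 and LOC124901868 shared the same 3 regions, and GRIP2 and SLC6A6 shared 2, so these are not separate loci. The sets with 3 near a gene also had few control-only regions close by, at most 1 each.

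Gene lists were read against the background of 9.09% of placed genes near a chimera-only region and 14.8% near a control-only region. The lists were drawn up for this cell type with earlier results of these data known, and they were not tested. Genes in all lists together, each counted once, had a chimera-only region in 30 of 244 cases, or 12.3%, and a control-only region in 49, or 20.1%. Their median span was 37.97 kb, against 26.1 kb over all placed genes.

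Actin and focal adhesion genes, which carry contractile and adhesive structures, had a chimera-only region in 7 of 27 placed genes, or 25.9%, and a control-only region in 4, or 14.8%. The median span of that list was 107 kb, so it held longer genes than the background. After TNS1, the highest-ranked was ACTN4, an actin crosslinker, with a region in the gene 8.12 kb from a start and folds of 3.63, 3.48 and 3.37 in chimera replicates 1, 2 and 3. ACTN4 and CNN3 also had a control-only region within 100 kb. TNS3, another tensin, held a region with folds of 3.61, 3.58 and 3.02, with a control peak 0.149 kb away. CALD1, which encodes the actin-binding caldesmon, held one with folds of 4.52, 6.42 and 3.98. One lay 85.2 kb from CNN3, a calponin, inside ALG14, with folds of 3.77, 4.07 and 5.32. The regions counted for the remaining genes of the list lay 77.0 and 97.55 kb from their spans.

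Wnt pathway genes had a chimera-only region in 7 of 33, or 21.2%, and a control-only region in 6, or 18.2%. LRP5, a Wnt co-receptor, had 2, and the one inside the gene had folds of 5.42, 5.09 and 4.49 in chimera replicates 1, 2 and 3. APC, a scaffold of the complex that destroys β-catenin, held one 19.7 kb from a start with folds of 5.48, 5.61 and 4.40. The region counted for AXIN1, another scaffold of that complex, lay 92.8 kb from its span, inside RAB11FIP3, with folds of 5.52, 6.72 and 3.77. The one counted for TCF7L2, a transcription factor of the pathway, lay 91.8 kb from its span, with folds of 4.53, 4.30 and 3.92.

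Epithelial junction and keratin genes, with a median span of 42.3 kb, had a chimera-only region in 1 of 36, or 2.78%, and a control-only region in 8, or 22.2%. The 1 was PKP3, a desmosomal plakophilin, 20.6 kb from a region that lay within B4GALNT4, with folds of 3.93, 3.35 and 2.57 in chimera replicates 1, 2 and 3. Mesenchymal and transition genes had one in 1 of 20, or 5%, and a control-only region in 3, or 15%. That gene was CDH2, the cadherin of neural and mesenchymal cells, with a region 0.508 kb from a start, folds of 2.77, 3.44 and 2.61 and a control peak 0.113 kb away.

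Neuroendocrine transcription factor genes, with a short median span of 5.70 kb, had a chimera-only region in 0 of 21, and a control-only region in 3, or 14.3%. Neuroendocrine and neuronal marker genes had one in 2 of 24, or 8.33%, and a control-only region in 7, or 29.2%. The 2 genes were SCG2, a secretogranin, and RTN1, a reticulon, and both also had a control-only region within 100 kb. The region in RTN1 had folds of 5.0, 3.21 and 4.40 in chimera replicates 1, 2 and 3, and the one 19.1 kb from SCG2 had folds of 2.68, 3.90 and 3.15.

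YAP and TEAD target genes, with a median span of 42.5 kb, had a chimera-only region in 3 of 23, or 13.04%, and a control-only region in 6, or 26.1%. The 3 were ANKRD1, a classic target of the Hippo pathway, F3, which encodes the coagulation initiator tissue factor, and NT5E, which encodes CD73. Folds in chimera replicates 1, 2 and 3 were 4.63, 6.38 and 4.33 for the region 55.6 kb from ANKRD1. They were 3.44, 4.08 and 3.30 for the region 51.6 kb from F3, and 4.52, 4.01 and 3.33 for the one 45.1 kb from NT5E. None of these 3 regions lay inside its gene, and the region counted for ANKRD1 was inside HTR7. A control peak lay 0.981 kb from the region counted for ANKRD1 and 0.524 kb from the region near F3.

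Genes for YAP, TAZ, TEAD factors and their VGLL partners had a median span of 67.2 kb. Of these 10 genes, 2 had a chimera-only region, or 20%, and 1 a control-only region, or 10%. VGLL3, a cofactor that binds TEAD proteins, held one with folds of 3.80, 4.55 and 4.19 in chimera replicates 1, 2 and 3. The region for TEAD3 lay 86.3 kb from its span, inside PPARD, with a control peak 0.721 kb away.

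Integrin genes, with a median span of 81.7 kb, had a chimera-only region in 3 of 19, or 15.8%, and a control-only region in 3. ITGB8 held one with folds of 5.38, 4.55 and 5.36 in chimera replicates 1, 2 and 3, ITGB5 held the 2 already counted near KALRN, and one lay 3.75 kb from ITGB2. Notch pathway genes, with a median span of 13.9 kb, had one in 3 of 20, or 15%, and a control-only region in 6, or 30%. MAML3, a Notch coactivator, held one with folds of 3.49, 3.60 and 3.39, one lay 17.3 kb from RBPJ, the DNA-binding factor of the pathway, and DLL4 had 2 within 100 kb. MAML3 also had a control-only region within 100 kb. Among 12 AP-1 genes, MAFK alone had a chimera-only region, at 24.2 kb, and 2 had a control-only region.

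**Figure D5:**
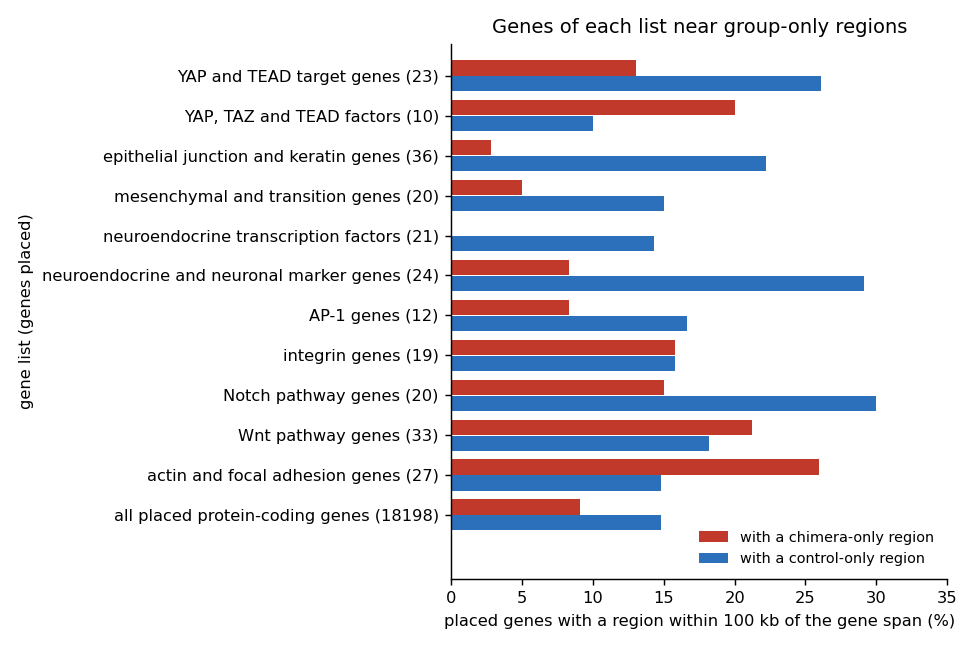
Percentage of the placed genes of each list with a chimera-only region (upper bar) or a control-only region (lower bar) within 100 kb of the gene span, with the number of placed genes in brackets and all placed genes at the bottom. The actin and focal adhesion list has the longest chimera-only bar, 25.9%, and neuroendocrine transcription factors have none. The median gene span was 107 kb in the former list and 5.70 kb in the latter.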

How the data were processed

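Chromatin accessibility of H1155 cells was profiled by Omni-ATAC in 3 chimera and 3 control libraries, per the labels' protocols. The authors deposited a separate MACS2 narrowPeak list for each library. The deposited fold is the authors' ratio of signal over local background, and the deposited −log10 p and q values are MACS2's within a list. HOMER 4.9 and GRCh38 appear in the submitters' processing notes, with no role stated. The aligner, filters, any shift of reads for the transposase and the MACS2 settings are not known here, and shifting would move summits by a few bases.

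Peaks were merged in Python 3.11.15 with pandas 2.3.3, numpy 2.4.6 and scipy 1.17.1, leaving out 0.0168% on other chromosomes. Genes were placed in 181 stretches of constant shift between builds, by a method tested on simulated positions. The 66 members beside unplaced genes, and chromosome 8 genes, whose strand was not used, were left out of start distances. Members and gene lists were chosen with earlier results of these data known. Named regions were the 25 top-ranked, up to 15 at gene starts, those near genes with 3 or more, and up to 5 per list, and 1 gene under this rule is not reported here. Alternatives were a −log10 q of at least 5, 50% cover, merging within 1 kb, other distances, and leaving out each library.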

Additional observations from a re-analysis of the deposited data

How the results depend on the processing

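Leaving out 1 library at a time gave 1134 to 2310 chimera-only regions, and the 5 libraries that moved the count by over 1.5 times are named with it. Their share near a gene start was then 2.72 to 3.78%, their share near listed genes 3.45 to 4.06%, the flanking difference 0.326 to 0.657 percentage points around chimera-only regions and −1.14 to −0.808 around control-only regions. The share near a gene start was 4.06% with a 2 kb window and 1.19% when peaks up to 1 kb apart were merged, and merging kept 718 of the 930 regions. Requiring a −log10 q of at least 5 gave 721 regions, which overlapped 458 of the 930. Requiring peaks to cover 50% gave 1155, which overlapped 717.

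The flanking differences are tied to how the regions were picked, so their direction under other settings is no sign of stability and no p is read from them. With the replicate block, the mean paired differences were 0.376 and −0.653 percentage points around chimera-only and control-only regions. These equal the unpaired differences by arithmetic, so they add no separate result. Presence of same-numbered libraries did not deviate together (correlations −0.00419, −0.0163 and 0.000788), so the numbers were not taken as pairs. Counting both ends of genes of unknown strand as starts, chosen after seeing the data, gave 3.24%. A region's own error is unknown without read depth, a library without a peak can hold signal, and gene placement may be wrong where genes moved between builds.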
